A study of Mus musculus with 24 samples.

Results

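The comparison set NZO/HiLtJ mice against WSB/EiJ mice, both on the standard diet, and its members were the 6 RNA-seq libraries so labelled out of 24 in the series. The NZO/HiLtJ group held 3 mice and the WSB/EiJ group held 3 mice, with 1 library per mouse. All were females killed at 26 weeks of age, bought from The Jackson Laboratory and fed from 4 weeks of age a diet with 17% of its energy from fat. The tissue was labelled as inguinal subcutaneous fat, and poly(A) RNA was sequenced. Neither group carried a transgene or an engineered allele according to the labels, so each group is 1 inbred genotype. The other libraries came from C57BL/6J and CAST/EiJ mice on the same diet and from all 4 strains on a diet rich in fat and sucrose, with 45% of its energy from fat. The study sought an adipocyte gene that protects against diabetes in mice bred to stay lean, and it is known for Tst, the gene of thiosulfate sulfurtransferase.

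NZO is an inbred strain with polygenic obesity and a tendency to insulin resistance and diabetes. WSB/EiJ is a small, lean, wild-derived strain that gains little fat on rich diets. White fat cells take up fatty acids and glucose, build triglyceride from them, release fatty acids under adrenergic control and secrete hormones such as leptin and adiponectin. In obese fat, macrophages gather around adipocytes, take up lipid and secrete chemokines, while matrix is laid down between the cells. Inbred strains also differ in coding sequence, gene copy number and regulatory alleles, so single genes can differ between them without relation to fat mass.

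The 6 libraries held 68056878 to 84009032 counts. Pairs within a strain differed far beyond counting error, and the labels state that each is a separate mouse. Adipocyte genes were high in every library. Adipoq, which encodes adiponectin, stood at 1733, 1679 and 1970.5 CPM in NZO/HiLtJ mice, against 1997, 2347 and 1763 CPM in WSB/EiJ mice per unscaled library total. Wt1, a marker of mesothelium and intra-abdominal fat that is low in subcutaneous fat, was counted in all 6 libraries, at 19.3, 22.2 and 15.6 CPM in NZO/HiLtJ mice, against 43.96, 41.9 and 69.1 CPM in WSB/EiJ mice. Upk3b, another mesothelial gene, ran 20.9, 22.7 and 14.5 CPM in NZO/HiLtJ mice, against 42.6, 41.98 and 44.7 CPM in WSB/EiJ mice. Both markers were therefore present in libraries labelled as subcutaneous. In bulk tissue, fewer cells of a type and less RNA per cell cannot be told apart.

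Transcripts of other tissues differed between the groups. The summed level of 16 liver genes without Cyp2e1, which fat also expresses, was 1132, 1918 and 209 CPM in NZO/HiLtJ mice, against 70.97, 91.4 and 57.95 CPM in WSB/EiJ mice. With Cyp2e1 included the order turned, with 1437, 2267 and 616 CPM in NZO/HiLtJ mice, against 2411, 3358 and 3112 CPM in WSB/EiJ mice. For the sum without Cyp2e1, all 3 NZO/HiLtJ values lay above all 3 WSB/EiJ values, and the smallest exact two-sided permutation p that 3 mice against 3 allow is 0.1. Of 17 liver list members, 14 were called higher in NZO/HiLtJ mice and 2 lower. Albumin (Alb) alone accounted for 506, 873 and 76.8 CPM in NZO/HiLtJ mice, against 18.1, 25.5 and 12.4 CPM in WSB/EiJ mice. The sum over 9 B lymphocyte genes was 449, 213 and 239 CPM in NZO/HiLtJ mice, against 10.3, 11.1 and 23.8 CPM in WSB/EiJ mice. The kidney sum was highest in NZO/HiLtJ mouse 2, with 13.6, 147 and 48.2 CPM in NZO/HiLtJ mice, against 49.8, 43.8 and 14.2 CPM in WSB/EiJ mice. Epcam, an epithelial gene, stood at 0.168, 0.369 and 0.239 CPM in NZO/HiLtJ mice, against 0.287, 0.220 and 5.67 CPM in WSB/EiJ mice, so that WSB/EiJ mouse 3 stood apart, and its smooth muscle sum was also the highest, in 964, 989.7 and 897 CPM in NZO/HiLtJ mice, against 329, 416 and 1357 CPM in WSB/EiJ mice. Each result is therefore read with a fit that carries the log2 of the liver sum without Cyp2e1 as a covariate, a choice made after seeing the data, and with a fit without NZO/HiLtJ mouse 2 and WSB/EiJ mouse 3. Because that sum separates the groups, the covariate and the strain cannot be fully told apart in the fit. These 2 fits are named only where they change a call or move a count by over 1.5 times.

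The strains differed in the level of 9716 of 19038 genes tested, which is 51% (edgeR quasi-likelihood test, adjusted p below 0.05). The calls were 5132 higher in NZO/HiLtJ mice, or 27.0% of genes tested, and 4584 lower, or 24.1%. At least 2-fold differences made up 2447 of the higher and 1447 of the lower calls. The 3 NZO/HiLtJ and 3 WSB/EiJ values did not overlap for 11500 genes, or 60.4%. The count fell to 5636 in a fit of all 24 libraries and to 4148 with the liver covariate, 2436 higher and 1712 lower. Because a call was this common, each gene group below is given by its counts in both directions beside the 27.0% and 24.1% of all genes, and by its median log2 fold change beside the median over all genes of 0. Levels are normalised CPM, counts scaled to a common library total, as mean ± SD over 3 mice unless each mouse is given. Log2 fold changes are NZO/HiLtJ minus WSB/EiJ. The ± value beside a fold change is its size divided by the square root of the quasi-likelihood F statistic. It is an approximate standard error that the tool does not report. For genes with almost no counts in a strain it is not a reliable error of the fold.

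**Figure D1:**
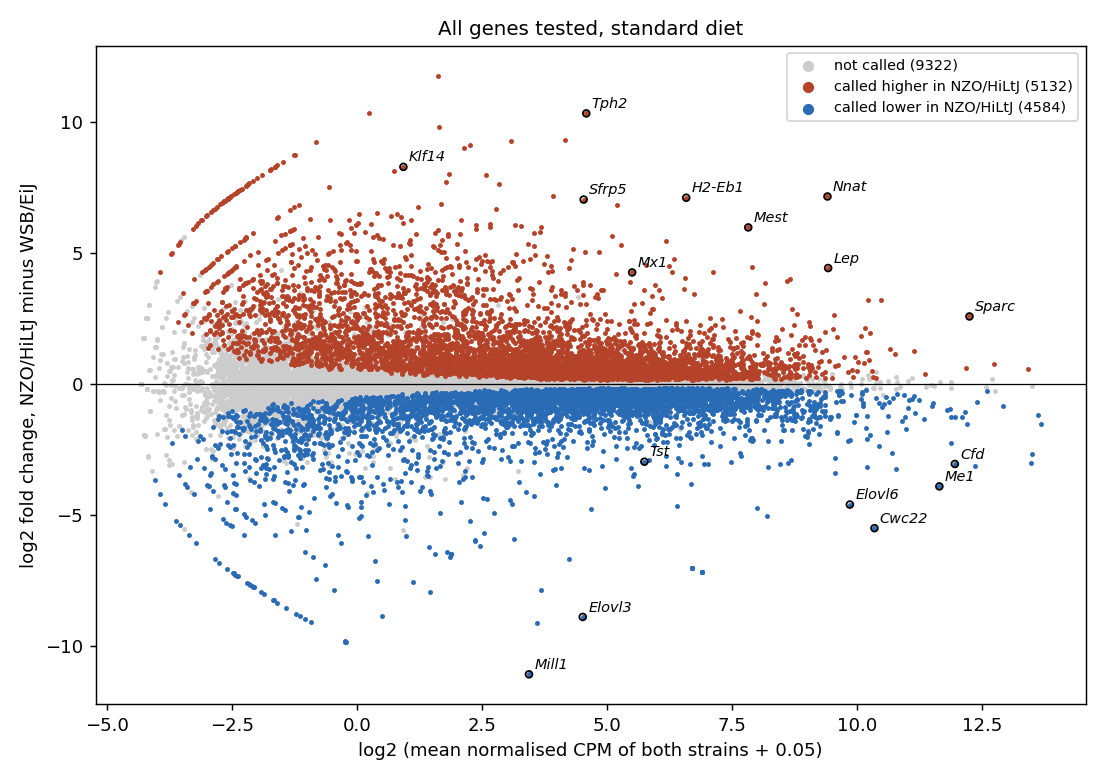
Each point is 1 of the 19038 genes tested, with the log2 of the mean normalised CPM of both strains plus 0.05 on the x axis and the fitted log2 fold change, NZO/HiLtJ minus WSB/EiJ, on the y axis. Called genes (5132 higher, 4584 lower) lie on both sides at all levels, and the arcs of points at low level are genes with almost no counts in 1 strain, whose fitted fold depends on the tool's prior count.

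**Figure D2:**
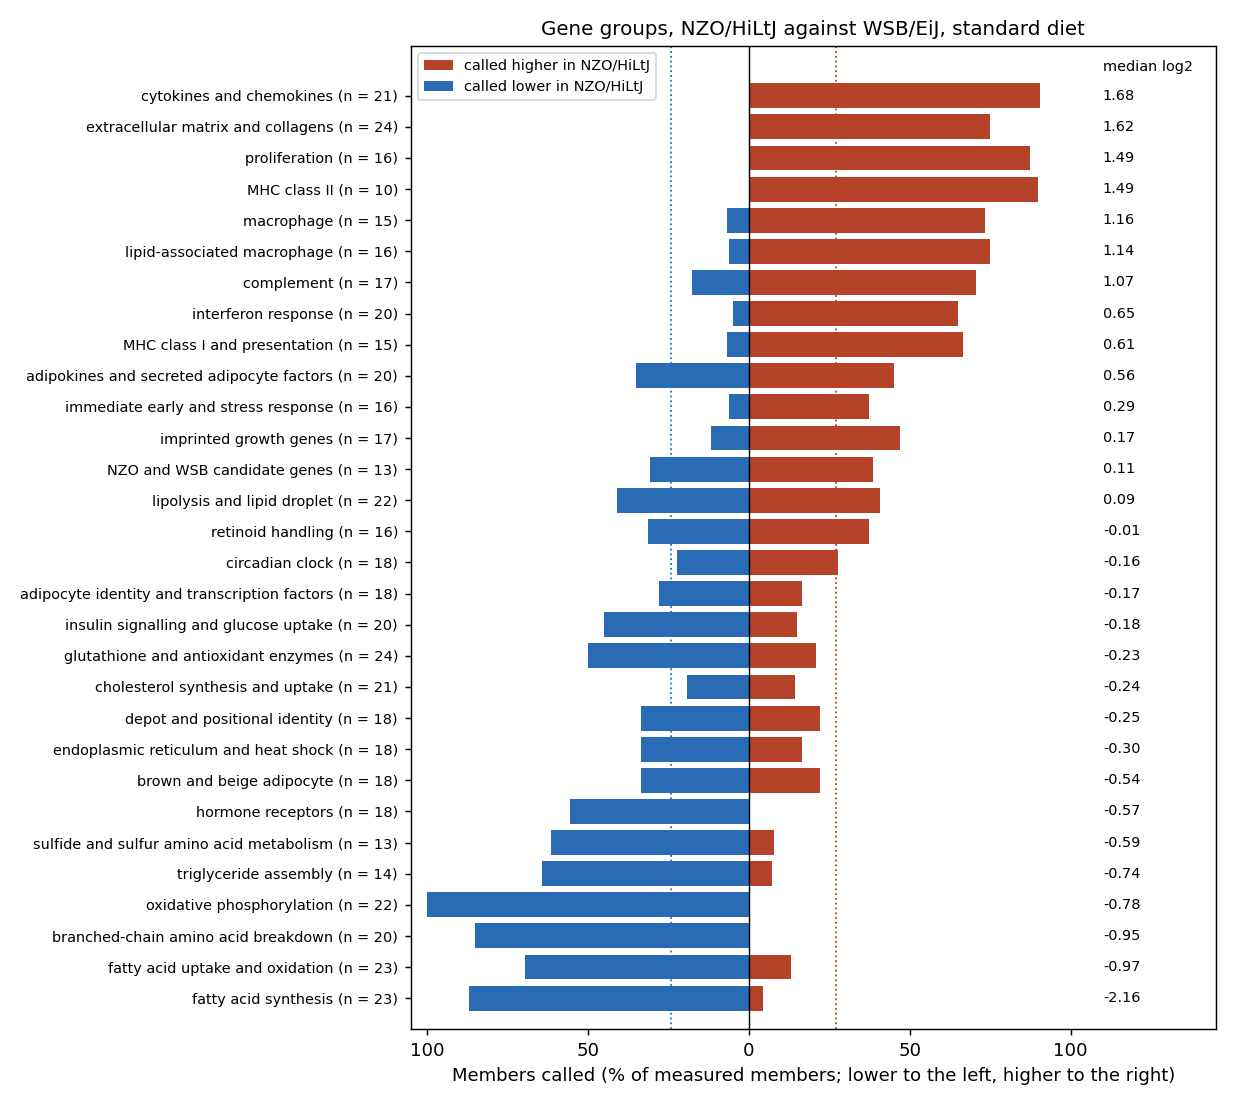
Bars give the percent of measured members of each gene group called higher (right) or lower (left) in NZO/HiLtJ mice, with dotted lines at the 27.0% and 24.1% of all genes and the median log2 fold change at the right. Immune, matrix and proliferation groups lie at the top with few or no members lower, and fatty acid synthesis, fatty acid oxidation, amino acid breakdown and oxidative phosphorylation groups lie at the bottom.

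Tst was lower in NZO/HiLtJ fat. The enzyme it encodes, also called rhodanese, sits in mitochondria, moves sulfur from thiosulfate to acceptors and belongs to the pathway that disposes of hydrogen sulfide. Tst had 12.2, 12.8 and 11.6 CPM in NZO/HiLtJ mice, against 84.1, 120.3 and 81.8 CPM in WSB/EiJ mice. The groups did not overlap, and the 3 NZO/HiLtJ mice lay within a narrow band (log2 fold change -2.97 ± 0.39, edgeR adjusted p = 0.000122). The fold change kept its call under every alternative tried, from -3.11 to -2.38. The other strains on this diet had 9.40 ± 4.08 CPM in C57BL/6J mice and 63.8 ± 35.1 CPM in CAST/EiJ mice, so that the NZO/HiLtJ mean was near the C57BL/6J mean and the WSB/EiJ mean was the highest of the 4.

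Of 13 measured members of the sulfide and sulfur amino acid list, 8 were called lower and 1 higher, with a median log2 fold change of -0.59. Sqor, which starts the oxidation of hydrogen sulfide, averaged 113 ± 5.54 CPM in NZO/HiLtJ mice and 169 ± 4.39 CPM in WSB/EiJ mice. Suox, the sulfite oxidase at its end, averaged 8.23 ± 1.37 CPM in NZO/HiLtJ mice and 16.1 ± 1.38 CPM in WSB/EiJ mice. Cdo1, which commits cysteine to taurine and sulfate, averaged 435 ± 31.3 CPM in NZO/HiLtJ mice and 883 ± 148 CPM in WSB/EiJ mice. Their log2 fold changes were -0.59, -0.96 and -1.02, all smaller in size than that of Tst. The single higher call, Tstd3, averaged 6.40 ± 0.152 CPM in NZO/HiLtJ mice and 4.58 ± 0.873 CPM in WSB/EiJ mice. With all 24 libraries in the fit, the calls for Sqor, Cdo1 and Tstd3 were lost. With the liver covariate, the call for Tstd3 was lost. Without NZO/HiLtJ mouse 2 and WSB/EiJ mouse 3, the call for Tstd3 was lost. The 24-library fit called 0 members higher and 4 lower, and the liver covariate fit called 0 higher and 6 lower.

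Secreted factors of adipocytes moved in both directions. Lep, the gene of leptin, whose level follows fat mass, had 1336, 1420.4 and 1187 CPM in NZO/HiLtJ mice, against 90.1, 39.3 and 54.8 CPM in WSB/EiJ mice. Every NZO/HiLtJ value exceeded every WSB/EiJ value by a wide margin (log2 fold change 4.42 ± 0.55, edgeR adjusted p = 7.7e-05). Cfd, the gene of adipsin, the factor D of complement that fat cells secrete, ran the other way, with 725, 833 and 1011 CPM in NZO/HiLtJ mice, against 8119, 8003 and 5227 CPM in WSB/EiJ mice. It too showed no overlap (log2 fold change -3.05 ± 0.32, edgeR adjusted p = 2.37e-05).

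Across the list, 9 of 20 measured members were called higher and 7 lower, with a median of 0.56. Among those higher, Rarres2, the gene of the chemoattractant chemerin, averaged 143 ± 8.58 CPM in NZO/HiLtJ mice and 34.995 ± 4.78 CPM in WSB/EiJ mice. Npr3, the receptor that clears natriuretic peptides, averaged 732 ± 48.5 CPM in NZO/HiLtJ mice and 48.2 ± 17.1 CPM in WSB/EiJ mice. Among those lower, Agt, which encodes angiotensinogen, averaged 7.41 ± 1.28 CPM in NZO/HiLtJ mice and 40.8 ± 6.37 CPM in WSB/EiJ mice. Retn, the gene of resistin, averaged 557 ± 51.6 CPM in NZO/HiLtJ mice and 1766 ± 284 CPM in WSB/EiJ mice. Nampt, an enzyme of NAD salvage that is also secreted, averaged 33.9 ± 1.06 CPM in NZO/HiLtJ mice and 73.999 ± 0.950 CPM in WSB/EiJ mice. Adipoq, named after its values were seen, had 1704 ± 157 CPM in NZO/HiLtJ mice and 2261 ± 429.5 CPM in WSB/EiJ mice after scaling, a log2 fold change of -0.41 ± 0.13, and its call was lost in several fits that left out 1 library. When the 24 libraries were fitted together, the calls for Retn and Adipoq were lost. Given the liver covariate, the call for Adipoq was lost. Over 24 libraries 7 members were higher and 3 lower, and with the liver covariate 7 were higher and 4 lower.

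The adipocyte identity list had 3 members called higher and 5 lower of 18 measured, with a median of -0.17, which is near the share of all genes. Klf14, an imprinted transcription factor gene tied to fat cell size in humans, had 3.43, 3.99 and 3.69 CPM in NZO/HiLtJ mice, against 0.0168, 0 and 0.0131 CPM in WSB/EiJ mice. Its WSB/EiJ libraries held 2 counts in all against 903 in the NZO/HiLtJ libraries, a ratio of 422 by total counts with a 95% counting interval of 116 to 3490. Cebpa, the adipogenic factor C/EBP alpha, averaged 254 ± 25.6 CPM in NZO/HiLtJ mice and 403 ± 92.3 CPM in WSB/EiJ mice. Cidec, a lipid droplet protein of white adipocytes, averaged 5619.6 ± 68.6 CPM in NZO/HiLtJ mice and 3692 ± 600.1 CPM in WSB/EiJ mice. Pde3b, which breaks down cyclic AMP after insulin, averaged 99.7 ± 5.12 CPM in NZO/HiLtJ mice and 182 ± 32.2 CPM in WSB/EiJ mice. The remaining members, among them Pparg, include 10 that were not called. In the fit of all 24 libraries, the calls for Cebpa, Cidec and Pde3b were lost. In the covariate fit, the calls for Cebpa, Cidec and Pde3b were lost. Counts for the list became 1 higher and 0 lower over 24 libraries and 1 higher and 1 lower with the liver covariate.

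Fatty acid synthesis was the gene group with the lowest median. Of 23 measured members, 20 were called lower in NZO/HiLtJ fat and 1 higher, with a median log2 fold change of -2.16, and in the fits that left out 1 library 19 to 21 were lower. In this pathway citrate leaves the mitochondrion through the carrier Slc25a1, Acly splits it to acetyl-CoA, Acaca and Acacb make malonyl-CoA, Fasn builds palmitate with NADPH from Me1 and others, and elongases and desaturases finish the chain. Thrsp, the Spot 14 protein, promotes the pathway.

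The promoter windows of Fasn, Thrsp and Slc25a1 are shown because these genes of the pathway fell together. The sequences are RefSeq promoters of the build GRCm38.p6, all on the minus strand and printed in the direction of transcription, at chr11:120824498-120824797 for Fasn, chr7:97417501-97417800 for Thrsp and chr16:17928170-17928469 for Slc25a1. The letters are those of the reference build, and the NZO/HiLtJ and WSB/EiJ alleles of these windows were not examined. Capitals mark CCAAT, or ATTGG on the other strand, and the E-box CACGTG.
Fasn: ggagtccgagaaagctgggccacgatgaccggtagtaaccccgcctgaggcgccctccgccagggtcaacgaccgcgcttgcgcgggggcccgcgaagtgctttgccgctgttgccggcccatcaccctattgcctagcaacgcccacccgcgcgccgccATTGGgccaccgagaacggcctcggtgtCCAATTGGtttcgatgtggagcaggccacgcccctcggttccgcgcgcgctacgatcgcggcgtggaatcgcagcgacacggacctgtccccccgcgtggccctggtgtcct
Thrsp: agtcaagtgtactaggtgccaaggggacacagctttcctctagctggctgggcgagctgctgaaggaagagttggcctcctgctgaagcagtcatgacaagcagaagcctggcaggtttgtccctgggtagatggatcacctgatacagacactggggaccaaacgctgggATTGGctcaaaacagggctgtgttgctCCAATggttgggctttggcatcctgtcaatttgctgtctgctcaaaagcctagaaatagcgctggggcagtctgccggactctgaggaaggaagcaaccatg
Slc25a1: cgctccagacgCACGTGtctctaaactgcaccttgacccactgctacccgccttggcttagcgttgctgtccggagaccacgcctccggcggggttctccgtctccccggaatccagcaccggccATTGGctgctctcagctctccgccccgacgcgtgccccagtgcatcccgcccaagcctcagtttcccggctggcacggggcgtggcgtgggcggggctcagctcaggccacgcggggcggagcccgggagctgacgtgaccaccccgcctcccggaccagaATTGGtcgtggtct

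The search on both strands covered the sterol regulatory element TCACNCCAC, the E-box CACGTG and CCAAT. No searched motif overlapped another in the 3 windows, apart from CCAAT and ATTGG that share bases in the Fasn window. Of 27025 genes with a promoter in the table, 1.44% held the sterol element, 8.09% the E-box and 41.1% CCAAT. Of 19 members of the list with a promoter there, 1, 3 and 12 held them, which is 5.26%, 15.8% and 63.2%. CCAAT was held by 7 of 9 members of the sulfide list (77.8%) and 8 of 18 of the matrix list (44.4%). It was held by 5 of 16 of the cytokine list (31.2%) and 4 of 13 of the oxidative phosphorylation list (30.8%). The window of Elovl6, also lower in NZO/HiLtJ fat, held no searched motif. A match is a description of letters and not a bound site.

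Fasn had 2006, 4345 and 3038 CPM in NZO/HiLtJ mice, against 23286, 19346 and 17774 CPM in WSB/EiJ mice. Acly had 1599.7, 3643 and 2283 CPM in NZO/HiLtJ mice, against 27875, 16748 and 16125 CPM in WSB/EiJ mice. In both genes the lowest WSB/EiJ value was above the highest NZO/HiLtJ value, with log2 fold changes of -2.69 ± 0.48 and -3.01 ± 0.63. Thrsp averaged 234 ± 111 CPM in NZO/HiLtJ mice and 2126 ± 492 CPM in WSB/EiJ mice, and Slc25a1 averaged 451 ± 109.5 CPM in NZO/HiLtJ mice and 2341 ± 780.0 CPM in WSB/EiJ mice. These 4 genes were named after their values were seen. Among the members named by rule, Me1, the cytosolic malic enzyme, had 301, 544 and 357 CPM in NZO/HiLtJ mice, against 8024, 5410.1 and 4652 CPM in WSB/EiJ mice (log2 fold change -3.91 ± 0.45, edgeR adjusted p = 5e-05). Acacb, the carboxylase at the outer mitochondrial membrane, averaged 131 ± 66.8 CPM in NZO/HiLtJ mice and 1389.5 ± 139.8 CPM in WSB/EiJ mice. Fads1, a desaturase of polyunsaturated fatty acids, averaged 24.96 ± 5.31 CPM in NZO/HiLtJ mice and 115 ± 7.49 CPM in WSB/EiJ mice.

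The elongases held the largest differences of the list. Elovl6, which lengthens palmitate, had 38.2, 116 and 66.4 CPM in NZO/HiLtJ mice, against 1629, 2179 and 1549 CPM in WSB/EiJ mice (log2 fold change -4.60 ± 0.65, edgeR adjusted p = 0.000192). Elovl3, an elongase of very long chains that is high in brown fat, had 0.0783, 0.137 and 0.0635 CPM in NZO/HiLtJ mice, against 51.99, 43.3 and 41.6 CPM in WSB/EiJ mice, close to absent in all 3 NZO/HiLtJ mice. The member called higher was Scd3, a desaturase with near-identical relatives whose reads the counting may split, at 263 ± 62.03 CPM in NZO/HiLtJ mice and 146 ± 20.6 CPM in WSB/EiJ mice. Once all 24 libraries were used, the call for Scd3 was lost. Under the liver covariate, the calls for Scd3, Fasn, Acly and Thrsp were lost. Without NZO/HiLtJ mouse 2 and WSB/EiJ mouse 3, the call for Scd3 was lost. The larger fit gave 0 members higher and 16 lower, and the liver covariate fit called 0 higher and 11 lower. For Fasn the other strains had 1817 ± 1130.2 CPM in C57BL/6J mice and 5479 ± 2066 CPM in CAST/EiJ mice. For Elovl6 they had 36.5 ± 20.5 CPM in C57BL/6J mice and 173 ± 108 CPM in CAST/EiJ mice, so WSB/EiJ was the highest of the 4 strains for both genes and NZO/HiLtJ stood between C57BL/6J and CAST/EiJ.

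**Figure D3:**
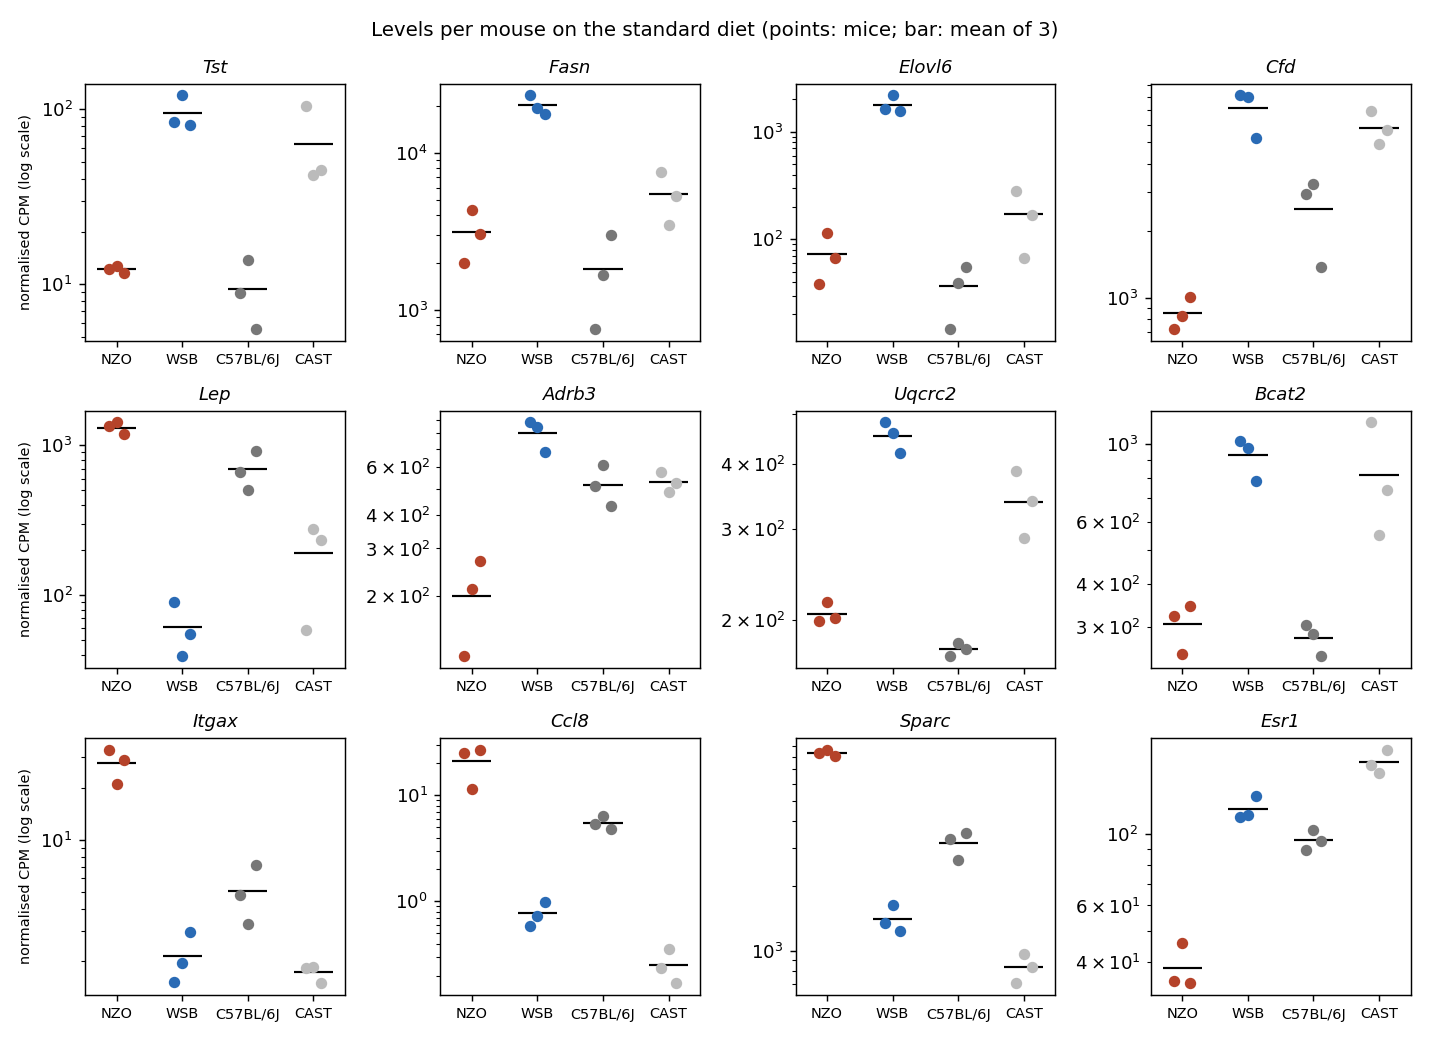
Points are single mice on the standard diet, with normalised CPM on a log y axis and bars at the mean of 3, for NZO/HiLtJ, WSB/EiJ, C57BL/6J and CAST/EiJ mice. Tst, Fasn, Elovl6, Cfd, Adrb3, Uqcrc2, Bcat2 and Esr1 are lower, and Lep, Itgax, Ccl8 and Sparc are higher, in all 3 NZO/HiLtJ mice than in all 3 WSB/EiJ mice.

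Enzymes that assemble triglyceride were also lower in NZO/HiLtJ fat, with 9 of 14 measured members called lower, 1 higher and a median of -0.74. Agpat2, an acyltransferase whose loss causes lipodystrophy, had 423, 478 and 453 CPM in NZO/HiLtJ mice, against 2405, 1665 and 1686 CPM in WSB/EiJ mice (log2 fold change -2.09 ± 0.19, edgeR adjusted p = 9.71e-06). Dgat1, which makes the final ester bond, averaged 165 ± 13.6 CPM in NZO/HiLtJ mice and 424 ± 60.3 CPM in WSB/EiJ mice. Gpam, the first acyltransferase, averaged 229 ± 54.2 CPM in NZO/HiLtJ mice and 748 ± 21.9 CPM in WSB/EiJ mice, and Mogat1, which esterifies monoacylglycerol, averaged 14.6 ± 2.90 CPM in NZO/HiLtJ mice and 60.6 ± 4.87 CPM in WSB/EiJ mice. The exception was Gk, glycerol kinase, at 61.7 ± 2.99 CPM in NZO/HiLtJ mice and 28.5 ± 0.457 CPM in WSB/EiJ mice. With all 24 libraries in the fit, the calls for Dgat1 and Gk were lost. Over 24 libraries 0 members were higher and 3 lower, and with the liver covariate 1 was higher and 5 lower.

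Of 23 measured genes of fatty acid uptake and oxidation, 16 were called lower and 3 higher, with a median of -0.97. Slc27a1, a fatty acid transport protein, had 85.3, 92.8 and 82.9 CPM in NZO/HiLtJ mice, against 715, 768 and 611 CPM in WSB/EiJ mice (log2 fold change -3.00 ± 0.16, edgeR adjusted p = 3.23e-07). The 2 subunits of the mitochondrial trifunctional protein fell together, Hadha with 300.2 ± 17.2 CPM in NZO/HiLtJ mice and 759 ± 48.4 CPM in WSB/EiJ mice and Hadhb with 609.9 ± 16.9 CPM in NZO/HiLtJ mice and 1404 ± 74.2 CPM in WSB/EiJ mice. Acadvl, the very long chain dehydrogenase, averaged 271 ± 6.85 CPM in NZO/HiLtJ mice and 628 ± 31.4 CPM in WSB/EiJ mice. Cpt1a, the carnitine transferase that is the main form in liver, averaged 46.98 ± 2.13 CPM in NZO/HiLtJ mice and 20.4 ± 1.74 CPM in WSB/EiJ mice, a direction that the liver sum without Cyp2e1 shares, and its call held with the liver covariate. Gpihbp1, the endothelial anchor of lipoprotein lipase, averaged 30.6 ± 0.812 CPM in NZO/HiLtJ mice and 16.3 ± 2.67 CPM in WSB/EiJ mice. When the 24 libraries were fitted together, the calls for Hadhb and Gpihbp1 were lost. Counts for the list became 1 higher and 8 lower over 24 libraries and 2 higher and 10 lower with the liver covariate.

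All 22 measured members of the oxidative phosphorylation list, nuclear-encoded subunits of the respiratory chain and ATP synthase, were called lower in NZO/HiLtJ fat, with a median of -0.78. Uqcrc2, a core subunit of complex III, had 199, 216 and 202 CPM in NZO/HiLtJ mice, against 481, 459 and 421 CPM in WSB/EiJ mice. The gap between the groups was wide relative to the spread (log2 fold change -1.14 ± 0.10, edgeR adjusted p = 7.88e-06). Sdha of complex II averaged 275 ± 14.9 CPM in NZO/HiLtJ mice and 604 ± 48.6 CPM in WSB/EiJ mice. Ndufs1 of complex I averaged 161 ± 9.73 CPM in NZO/HiLtJ mice and 364 ± 29.1 CPM in WSB/EiJ mice, and Cox5a of complex IV averaged 42.2 ± 2.38 CPM in NZO/HiLtJ mice and 86.7 ± 9.49 CPM in WSB/EiJ mice. The 22 calls stood in each fit that left out 1 library, while the fit of all 24 libraries called 8 lower and the fit with the liver covariate called 11 lower. The 24 libraries had a biological coefficient of variation of 40.1%, against 22.3% in the 12 of the standard diet.

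Breakdown of branched-chain amino acids, a mitochondrial pathway that is active in fat cells, followed the same direction. Of 20 measured members, 17 were lower and 0 higher, with a median of -0.95. Bcat2, the first transaminase, named after its values were seen, averaged 306 ± 48.1 CPM in NZO/HiLtJ mice and 928 ± 124 CPM in WSB/EiJ mice. Dbt, the E2 subunit of the branched-chain dehydrogenase, averaged 30.7 ± 0.764 CPM in NZO/HiLtJ mice and 57.1 ± 4.77 CPM in WSB/EiJ mice. Aldh6a1 and Hibadh, of valine breakdown, averaged 343 ± 33.5 CPM in NZO/HiLtJ mice and 839 ± 85.2 CPM in WSB/EiJ mice, and 186 ± 9.77 CPM in NZO/HiLtJ mice and 372 ± 46.7 CPM in WSB/EiJ mice. Pcca, a propionyl-CoA carboxylase subunit, averaged 88.04 ± 2.09 CPM in NZO/HiLtJ mice and 230.5 ± 27.3 CPM in WSB/EiJ mice. In the fit of all 24 libraries, the calls for Dbt and Aldh6a1 were lost. With the liver covariate, the call for Bcat2 was lost. A fit of 24 libraries gave 0 members higher and 7 lower, and the liver covariate fit called 0 higher and 10 lower.

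Genes of lipolysis and the lipid droplet were split evenly, with 9 higher and 9 lower of 22 measured and a median of 0.09. Adrb3, the adrenergic receptor that drives lipolysis in mouse fat, had 119.9, 212 and 269.5 CPM in NZO/HiLtJ mice, against 879, 846 and 682 CPM in WSB/EiJ mice (log2 fold change -2.00 ± 0.25, edgeR adjusted p = 8.59e-05). Abhd5, the activator of the triglyceride lipase, averaged 205 ± 21.4 CPM in NZO/HiLtJ mice and 369.6 ± 27.4 CPM in WSB/EiJ mice. Plin2, a coat protein of lipid droplets, averaged 621 ± 55.4 CPM in NZO/HiLtJ mice and 350.2 ± 66.97 CPM in WSB/EiJ mice. Hilpda, an inhibitor of the same lipase, averaged 7.62 ± 0.378 CPM in NZO/HiLtJ mice and 3.38 ± 0.224 CPM in WSB/EiJ mice. Once all 24 libraries were used, the calls for Adrb3, Abhd5 and Plin2 were lost. Given the liver covariate, the call for Plin2 was lost. Over 24 libraries 2 members were higher and 1 lower, and with the liver covariate 1 was higher and 4 lower.

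Of 18 measured brown and beige fat genes, 4 were higher and 6 lower, with a median of -0.54. Ppargc1a, a coactivator of mitochondrial genes, averaged 4.69 ± 0.832 CPM in NZO/HiLtJ mice and 21.6 ± 2.33 CPM in WSB/EiJ mice. Cidea, a droplet protein of brown fat, averaged 11.8 ± 4.50 CPM in NZO/HiLtJ mice and 60.3 ± 8.10 CPM in WSB/EiJ mice. Prdm16, a factor of the beige program, went the other way, at 40.2 ± 8.29 CPM in NZO/HiLtJ mice and 22.8 ± 2.9998 CPM in WSB/EiJ mice. Ucp1, the uncoupling protein, named after its values were seen, had 6.18, 15.1 and 4.79 CPM in NZO/HiLtJ mice, against 25.3, 25.8 and 34.9 CPM in WSB/EiJ mice. Its values did not overlap between the groups, and its call ended in 3 of the fits that dropped 1 library. With all 24 libraries in the fit, the calls for Cidea, Prdm16 and Ucp1 were lost. In the covariate fit, the calls for Prdm16 and Ucp1 were lost. Without NZO/HiLtJ mouse 2 and WSB/EiJ mouse 3, the call for Prdm16 was lost. Counts for the list became 0 higher and 2 lower over 24 libraries and 1 higher and 3 lower with the liver covariate.

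In the insulin and glucose uptake list 9 of 20 measured members were lower and 3 higher, with a median of -0.18. Insr, the insulin receptor, averaged 59.2 ± 6.84 CPM in NZO/HiLtJ mice and 113 ± 6.01 CPM in WSB/EiJ mice. Irs1, its main docking protein in fat, averaged 27.1 ± 3.41 CPM in NZO/HiLtJ mice and 76.8 ± 6.98 CPM in WSB/EiJ mice. Slc2a4, the insulin-responsive glucose transporter GLUT4, had 99.8, 124 and 128 CPM in NZO/HiLtJ mice, against 328, 219.7 and 225 CPM in WSB/EiJ mice (log2 fold change -1.14 ± 0.17, edgeR adjusted p = 0.000305). Hk2, hexokinase 2, averaged 75.005 ± 8.75 CPM in NZO/HiLtJ mice and 165 ± 58.2 CPM in WSB/EiJ mice. Grb14, an adaptor that inhibits the insulin receptor, had 20.98, 17.8 and 22.2 CPM in NZO/HiLtJ mice, against 1.96, 2.21 and 2.52 CPM in WSB/EiJ mice (log2 fold change 3.19 ± 0.24, edgeR adjusted p = 2.81e-06). Ptpn1, the phosphatase that acts on the receptor, averaged 47.96 ± 3.10 CPM in NZO/HiLtJ mice and 34.8 ± 2.22 CPM in WSB/EiJ mice. When the 24 libraries were fitted together, the call for Slc2a4 was lost. Under the liver covariate, the calls for Slc2a4 and Hk2 were lost. Without WSB/EiJ mouse 3, 5 members were called higher. The 24-library fit called 3 members higher and 4 lower, and the liver covariate fit called 2 higher and 2 lower.

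Macrophage genes were higher in NZO/HiLtJ fat, with 11 of 15 called higher, 1 lower and a median of 1.16. Cd68, a lysosomal protein of macrophages, had 77.2, 62.8 and 79.999 CPM in NZO/HiLtJ mice, against 22.3, 20.2 and 23.3 CPM in WSB/EiJ mice (log2 fold change 1.74 ± 0.12, edgeR adjusted p = 1.29e-06). Ctss, a protease of antigen processing, averaged 104 ± 27.7 CPM in NZO/HiLtJ mice and 14.6 ± 0.961 CPM in WSB/EiJ mice. Lgals3, the gene of galectin 3, averaged 264 ± 29.6 CPM in NZO/HiLtJ mice and 58.4 ± 9.60 CPM in WSB/EiJ mice, and Fcgr1, an antibody receptor, averaged 14.3 ± 3.19 CPM in NZO/HiLtJ mice and 3.22 ± 0.257 CPM in WSB/EiJ mice. The member called lower was Cd163, a scavenger receptor of resident macrophages, at 43.7 ± 3.74 CPM in NZO/HiLtJ mice and 55.9 ± 2.95 CPM in WSB/EiJ mice. In the fit of all 24 libraries, the call for Cd163 was lost.

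The list for lipid-associated macrophages, cells that engulf lipid in obese fat, had 12 of 16 members higher and 1 lower, with a median of 1.14. Itgax, the gene of CD11c, had 33.1, 21.1 and 29.01 CPM in NZO/HiLtJ mice, against 1.51, 1.96 and 2.97 CPM in WSB/EiJ mice (log2 fold change 3.68 ± 0.33, edgeR adjusted p = 7.98e-06). Mmp12, the macrophage elastase, had 94.3, 53.1 and 80.5 CPM in NZO/HiLtJ mice, against 1.46, 1.63 and 2.68 CPM in WSB/EiJ mice. Gpnmb, a lysosomal membrane glycoprotein, averaged 34.6 ± 11.7 CPM in NZO/HiLtJ mice and 3.96 ± 0.328 CPM in WSB/EiJ mice. Trem2, a lipid receptor, named after its values were seen, averaged 38.7 ± 7.91 CPM in NZO/HiLtJ mice and 10.01 ± 1.53 CPM in WSB/EiJ mice, against 18.8 ± 7.27 CPM in C57BL/6J mice and 135 ± 16.4 CPM in CAST/EiJ mice. Fabp5, which adipocytes express as well, was the one lower, at 288 ± 27.4 CPM in NZO/HiLtJ mice and 777 ± 120.1 CPM in WSB/EiJ mice. Once all 24 libraries were used, the call for Fabp5 was lost. With the liver covariate, the call for Fabp5 was lost. Liver transcripts moved with this group, and the fit with the liver covariate called 7 higher and 0 lower here and 9 higher and 1 lower in the macrophage list.

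Cytokines, chemokines and their receptors had 19 of 21 members called higher and 0 lower, with a median of 1.68. Ccl8, a monocyte chemokine, had 25.3, 11.4 and 26.97 CPM in NZO/HiLtJ mice, against 0.587, 0.730 and 0.997 CPM in WSB/EiJ mice (log2 fold change 4.77 ± 0.37, edgeR adjusted p = 3.12e-06). Cxcl10, which interferon induces, averaged 5.23 ± 0.675 CPM in NZO/HiLtJ mice and 0.631 ± 0.231 CPM in WSB/EiJ mice. Ccl9 averaged 39.3 ± 8.35 CPM in NZO/HiLtJ mice and 15.4 ± 4.11 CPM in WSB/EiJ mice, and Cx3cr1, the receptor of fractalkine, averaged 2.65 ± 0.177 CPM in NZO/HiLtJ mice and 1.04 ± 0.211 CPM in WSB/EiJ mice. Il1b and Il18 were the members measured and not called. The fits that left out 1 library called 18 to 20 higher. With all 24 libraries in the fit, the call for Cx3cr1 was lost. With the liver covariate 12 members were higher and 0 lower.

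Genes of antigen presentation by MHC class II, which B cells, macrophages and dendritic cells express, were higher for 9 of 10 members, with 0 lower and a median of 1.49. H2-Eb1, a class II beta chain, had 222, 135 and 215 CPM in NZO/HiLtJ mice, against 1.81, 1.28 and 1.10 CPM in WSB/EiJ mice (log2 fold change 7.10 ± 0.32, edgeR adjusted p = 7.93e-08). The other strains had 183 ± 39.4 CPM in C57BL/6J mice and 18.3 ± 4.18 CPM in CAST/EiJ mice, so the low side was WSB/EiJ. Cd74, the invariant chain, averaged 826 ± 169 CPM in NZO/HiLtJ mice and 245 ± 23.5 CPM in WSB/EiJ mice. H2-Ea-ps, the alpha chain of the second class II molecule that C57BL/6J mice do not make, averaged 147 ± 36.01 CPM in NZO/HiLtJ mice and 51.7 ± 5.38 CPM in WSB/EiJ mice, and 0.145 ± 0.0822 CPM in C57BL/6J mice and 12.7 ± 2.87 CPM in CAST/EiJ mice. These loci differ in sequence between strains, and how such reads were aligned is not given in the sources used here. B lymphocyte genes moved with this group, with 7 of 9 measured called higher, or 4 with the liver covariate, and their part in it was not tested. Ms4a1, the gene of CD20, named after its values were seen, had 8.22, 1.54 and 3.11 CPM in NZO/HiLtJ mice, against 0.436, 0.581 and 0.315 CPM in WSB/EiJ mice, highest in NZO/HiLtJ mouse 1.

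In MHC class I and its loading machinery 10 of 15 were higher and 1 lower, with a median of 0.61. H2-D1 averaged 1958 ± 245 CPM in NZO/HiLtJ mice and 509 ± 83.8 CPM in WSB/EiJ mice, B2m, the shared light chain, averaged 1338 ± 78.3 CPM in NZO/HiLtJ mice and 663 ± 115 CPM in WSB/EiJ mice, and Tapbp, the peptide loading factor tapasin, averaged 209 ± 13.2 CPM in NZO/HiLtJ mice and 129 ± 10.8 CPM in WSB/EiJ mice. H2-Q10, a secreted class I molecule that liver makes in quantity, was the one lower, at 95.9 ± 43.6 CPM in NZO/HiLtJ mice and 725 ± 117 CPM in WSB/EiJ mice, which is opposite to the liver sum without Cyp2e1. Genes of this family share near-identical stretches, so reads may be split between them. Counts for the list became 6 higher and 1 lower over 24 libraries.

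Of 20 measured interferon-induced genes, 13 were higher and 1 lower, with a median of 0.65. Mx1, an antiviral GTPase that is defective in many inbred strains, had 102, 64.3 and 92.1 CPM in NZO/HiLtJ mice, against 6.04, 4.46 and 3.11 CPM in WSB/EiJ mice (log2 fold change 4.25 ± 0.31, edgeR adjusted p = 2.26e-06). The other strains had 5.12 ± 1.62 CPM in C57BL/6J mice and 4.04 ± 0.482 CPM in CAST/EiJ mice, so the high side was NZO/HiLtJ. Ifi202b, an interferon-induced gene tied to fat mass in NZO crosses, averaged 23.1 ± 4.23 CPM in NZO/HiLtJ mice and 6.52 ± 0.693 CPM in WSB/EiJ mice, and 0.0471 ± 0.0255 CPM in C57BL/6J mice and 0.0495 ± 0.0454 CPM in CAST/EiJ mice. Isg15, a ubiquitin-like modifier, averaged 3.57 ± 0.896 CPM in NZO/HiLtJ mice and 1.05 ± 0.133 CPM in WSB/EiJ mice. Ifi27l2a, a small interferon-induced membrane protein, was the one lower, at 107 ± 14.4 CPM in NZO/HiLtJ mice and 488 ± 38.8 CPM in WSB/EiJ mice. When the 24 libraries were fitted together, the call for Isg15 was lost. The 24-library fit called 3 members higher and 1 lower. Fits that left out 1 library called 9 to 14 higher.

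Complement genes were higher for 12 of 17 members and lower for 3, with a median of 1.07. C4b had 493, 485 and 624 CPM in NZO/HiLtJ mice, against 36.4, 38.3 and 35.7 CPM in WSB/EiJ mice (log2 fold change 3.86 ± 0.15, edgeR adjusted p = 2.68e-08). C4a is a near-identical copy whose reads may be shared, and it averaged 466 ± 66.2 CPM in NZO/HiLtJ mice and 43.5 ± 0.944 CPM in WSB/EiJ mice. The C1q chains, made by macrophages, included C1qb at 75.7 ± 9.25 CPM in NZO/HiLtJ mice and 27.9 ± 1.24 CPM in WSB/EiJ mice and C1qc at 73.7 ± 9.98 CPM in NZO/HiLtJ mice and 20.96 ± 1.10 CPM in WSB/EiJ mice. C3, the central component, was lower, at 953 ± 77.5 CPM in NZO/HiLtJ mice and 3112 ± 471 CPM in WSB/EiJ mice, as was adipsin above. Without NZO/HiLtJ mouse 1, or without WSB/EiJ mouse 2, 1 member was called lower, as in the 24-library and liver covariate fits.

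The matrix was another group with a one-sided count, with 18 of 24 measured members higher, 0 lower and a median of 1.62. Sparc, a collagen-binding protein of the matrix, had 8358, 8645 and 8057 CPM in NZO/HiLtJ mice, against 1351, 1632 and 1227 CPM in WSB/EiJ mice (log2 fold change 2.57 ± 0.16, edgeR adjusted p = 7.14e-07). Col4a1, a chain of basement membrane collagen, averaged 1058 ± 55.8 CPM in NZO/HiLtJ mice and 265 ± 45.3 CPM in WSB/EiJ mice. Col6a2 and Col1a1, named after their values were seen, averaged 1287 ± 12.1 CPM in NZO/HiLtJ mice and 208 ± 52.8 CPM in WSB/EiJ mice, and 884 ± 95.02 CPM in NZO/HiLtJ mice and 189 ± 39.2 CPM in WSB/EiJ mice. Lox, which crosslinks collagen, averaged 71.5 ± 8.42 CPM in NZO/HiLtJ mice and 16.5 ± 0.814 CPM in WSB/EiJ mice, and Mmp3, a matrix protease, averaged 7.74 ± 2.03 CPM in NZO/HiLtJ mice and 0.502 ± 0.152 CPM in WSB/EiJ mice. Col1a2, Col3a1, Fn1, Timp2, Mmp2 and Mmp14 were not called. Endothelial genes, which share basement membrane, were higher for 7 of 12 members with none lower, and smooth muscle genes for 4 of 13 with 2 lower. Fibroblast and preadipocyte genes were higher for 3 of 12 and lower for 5. Across all alternatives 4 to 8 endothelial genes were higher and 0 to 1 lower. The ranges were 3 to 5 higher and 0 to 3 lower for smooth muscle, and 0 to 3 higher and 2 to 6 lower for fibroblast genes. With the liver covariate 12 matrix members were higher and 1 lower.

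Cell cycle genes were higher for 14 of 16 members, with 0 lower and a median of 1.49. Mki67, which marks cycling cells, had 9.01, 8.07 and 7.03 CPM in NZO/HiLtJ mice, against 1.33, 2.21 and 2.56 CPM in WSB/EiJ mice (log2 fold change 1.98 ± 0.21, edgeR adjusted p = 3.17e-05). Aurkb, a mitotic kinase, averaged 3.57 ± 0.466 CPM in NZO/HiLtJ mice and 1.004 ± 0.118 CPM in WSB/EiJ mice. Ccna2, a cyclin of the S and G2 phases, averaged 5.20 ± 0.990 CPM in NZO/HiLtJ mice and 1.86 ± 0.365 CPM in WSB/EiJ mice, and Mcm5, of the replicative helicase, averaged 9.17 ± 1.38 CPM in NZO/HiLtJ mice and 4.39 ± 0.405 CPM in WSB/EiJ mice. The levels were low in both strains, and bulk libraries do not say which cells held them. Counts for the list became 6 higher and 0 lower with the liver covariate.

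Hormone receptors and related genes were lower or not called in NZO/HiLtJ fat, with 10 of 18 lower, 0 higher and a median of -0.57. Esr1, the estrogen receptor alpha, had 34.97, 45.7 and 34.4 CPM in NZO/HiLtJ mice, against 113, 114 and 131 CPM in WSB/EiJ mice (log2 fold change -1.64 ± 0.12, edgeR adjusted p = 2.26e-06). Prlr, the prolactin receptor, averaged 32.2 ± 10.7 CPM in NZO/HiLtJ mice and 120.3 ± 10.1 CPM in WSB/EiJ mice. Hsd11b1, which regenerates active glucocorticoid, averaged 177 ± 26.4 CPM in NZO/HiLtJ mice and 880.0 ± 157 CPM in WSB/EiJ mice. Lepr, the leptin receptor, averaged 4.13 ± 0.333 CPM in NZO/HiLtJ mice and 11.4 ± 4.12 CPM in WSB/EiJ mice. In the fit of all 24 libraries, the call for Lepr was lost. The 24-library fit called 0 members higher and 5 lower.

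Imprinted growth genes had 8 of 17 members higher and 2 lower, with a median of 0.17. Mest, whose level in mouse fat goes with fat expansion, had 413, 498 and 431 CPM in NZO/HiLtJ mice, against 7.97, 7.28 and 6.17 CPM in WSB/EiJ mice (log2 fold change 5.97 ± 0.95, edgeR adjusted p = 0.000418). Nnat, the gene of neuronatin, had 1158, 1262 and 1641 CPM in NZO/HiLtJ mice, against 7.55, 9.70 and 11.3 CPM in WSB/EiJ mice (log2 fold change 7.15 ± 1.06, edgeR adjusted p = 0.000255). The means of the other strains were above WSB/EiJ for both genes, with 337 ± 252 CPM in C57BL/6J mice and 294 ± 231 CPM in CAST/EiJ mice for Mest and 1746 ± 376 CPM in C57BL/6J mice and 315 ± 272 CPM in CAST/EiJ mice for Nnat. Every mouse of the other strains exceeded the 3 WSB/EiJ mice, though for Nnat CAST/EiJ mouse 1, with 13.2 CPM, lay close to them. Plagl1, a transcription factor, averaged 213 ± 22.9 CPM in NZO/HiLtJ mice and 51.3 ± 3.92 CPM in WSB/EiJ mice, and Ndn, the gene of necdin, averaged 16.6 ± 1.37 CPM in NZO/HiLtJ mice and 7.15 ± 0.265 CPM in WSB/EiJ mice. Outside the list, Sfrp5, a secreted inhibitor of Wnt signals that rises in growing fat, had 39.2, 42.9 and 55.8 CPM in NZO/HiLtJ mice, against 0.352, 0.431 and 0.276 CPM in WSB/EiJ mice (log2 fold change 7.03 ± 1.18, edgeR adjusted p = 0.000574). Rasgrf1, a nucleotide exchange factor, was near its detection limit, at 0.0982 ± 0.0885 CPM in NZO/HiLtJ mice and 0.542 ± 0.297 CPM in WSB/EiJ mice. Once all 24 libraries were used, the call for Rasgrf1 was lost. Given the liver covariate, the call for Rasgrf1 was lost. Over 24 libraries 6 members were higher and 0 lower, and with the liver covariate 4 were higher and 0 lower.

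Among 13 measured genes that crosses or sequence surveys of these strains had pointed to, 5 were higher and 4 lower. Abcg1, a lipid transporter of macrophages and adipocytes, averaged 29.6 ± 1.03 CPM in NZO/HiLtJ mice and 7.18 ± 1.005 CPM in WSB/EiJ mice. Nnt, the mitochondrial transhydrogenase of which C57BL/6J lacks part, averaged 49.2 ± 5.96 CPM in NZO/HiLtJ mice and 115 ± 12.1 CPM in WSB/EiJ mice. Pctp, a phosphatidylcholine transfer protein, averaged 2.11 ± 0.550 CPM in NZO/HiLtJ mice and 6.75 ± 0.955 CPM in WSB/EiJ mice. Cwc22, a splicing factor gene in a duplicated region that WSB/EiJ carries in extra copies, had 59.4, 55.1 and 54.6 CPM in NZO/HiLtJ mice, against 2436, 2726 and 2511 CPM in WSB/EiJ mice (log2 fold change -5.50 ± 0.09, edgeR adjusted p = 7.21e-12). Apoa2, an apolipoprotein that liver makes, averaged 106 ± 73.9 CPM in NZO/HiLtJ mice and 4.58 ± 2.42 CPM in WSB/EiJ mice, a gene that moved with the liver markers. In the covariate fit, the call for Apoa2 was lost. Counts for the list became 3 higher and 3 lower over 24 libraries and 2 higher and 4 lower with the liver covariate. Zfp69, Tbc1d1, Gpr50 and Fto were not called.

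The remaining lists moved in both directions or had counts near the background. Of 24 glutathione and antioxidant genes, 5 were higher and 12 lower, with Sod3, the extracellular superoxide dismutase, at 269 ± 12.4 CPM in NZO/HiLtJ mice and 48.5 ± 9.86 CPM in WSB/EiJ mice and Gstm1, a glutathione transferase with near-identical relatives, at 109 ± 17.5 CPM in NZO/HiLtJ mice and 283 ± 53.7 CPM in WSB/EiJ mice. Hmox1, the heme oxygenase, averaged 43.7 ± 11.7 CPM in NZO/HiLtJ mice and 16.8 ± 1.66 CPM in WSB/EiJ mice. Of 16 retinoid genes, 6 were higher and 5 lower, with Aldh1a1, which makes retinoic acid, at 43.3 ± 2.07 CPM in NZO/HiLtJ mice and 14.2 ± 0.826 CPM in WSB/EiJ mice and Rdh12, a retinal reductase, at 1.30 ± 0.692 CPM in NZO/HiLtJ mice and 17.5 ± 6.63 CPM in WSB/EiJ mice. Of 18 genes of fat depot and position, 4 were higher and 6 lower. Wt1 averaged 18.1 ± 3.19 CPM in NZO/HiLtJ mice and 56.4 ± 12.4 CPM in WSB/EiJ mice after scaling, and Tbx5, a factor of anterior position, averaged 1.39 ± 0.319 CPM in NZO/HiLtJ mice and 0.145 ± 0.0469 CPM in WSB/EiJ mice. Mesothelial genes moved with Wt1, as 8 of 9 were lower and 1 higher. Across all alternatives 2 to 8 of these mesothelial genes were lower and 0 to 1 higher.

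Cholesterol genes gave 3 higher and 4 lower calls of 21, with a median of -0.24. Insig1, which restrains sterol synthesis, averaged 59.9 ± 11.4 CPM in NZO/HiLtJ mice and 209.8 ± 68.05 CPM in WSB/EiJ mice, Fdft1, squalene synthase, averaged 23.5 ± 1.02 CPM in NZO/HiLtJ mice and 51.9 ± 6.25 CPM in WSB/EiJ mice, and Mvk, mevalonate kinase, averaged 59.9 ± 4.81 CPM in NZO/HiLtJ mice and 39.5 ± 7.43 CPM in WSB/EiJ mice. DESeq2 called 8 lower, as did the fit without WSB/EiJ mouse 2. Clock genes gave 5 higher and 4 lower of 18, and fits that left out 1 library gave 2 to 6 higher and 2 to 7 lower. Per1, a clock repressor, averaged 82.2 ± 1.33 CPM in NZO/HiLtJ mice and 36.8 ± 15.1 CPM in WSB/EiJ mice. The hour of killing is not given in the sources used here. Immediate early genes gave 6 higher and 1 lower of 16, among them Zfp36, which destabilises cytokine messages, at 18.9 ± 1.91 CPM in NZO/HiLtJ mice and 9.13 ± 1.75 CPM in WSB/EiJ mice. The endoplasmic reticulum and heat shock list gave 3 higher and 6 lower of 18, with Ddit3, the stress factor CHOP, at 13.9 ± 0.999 CPM in NZO/HiLtJ mice and 8.24 ± 1.63 CPM in WSB/EiJ mice and Dnajb9, a chaperone partner, at 17.8 ± 1.52 CPM in NZO/HiLtJ mice and 45.99 ± 10.3 CPM in WSB/EiJ mice. With all 24 libraries in the fit, the calls for Gstm1, Mvk and Per1 were lost. Under the liver covariate, the calls for Mvk, Ddit3 and Dnajb9 were lost. The 24-library fit called 2 higher and 3 lower of the antioxidant list, 2 higher and 1 lower of the retinoid list, 1 higher and 3 lower of the depot list, 0 higher and 3 lower of the cholesterol list, 1 higher and 1 lower of the clock list, 3 higher and 0 lower of the immediate early list and 2 higher and 4 lower of the endoplasmic reticulum list. The liver covariate fit called 3 higher and 6 lower of the antioxidant list, 2 higher and 4 lower of the retinoid list, 3 higher and 3 lower of the depot list, 0 higher and 2 lower of the cholesterol list, 2 higher and 1 lower of the clock list, 2 higher and 0 lower of the immediate early list and 0 higher and 1 lower of the endoplasmic reticulum list.

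Some genes were close to on or off between the strains. Tph2, the tryptophan hydroxylase of serotonin neurons, had 58.1, 42.9 and 43.03 CPM in NZO/HiLtJ mice, against 0.0503, 0.0332 and 0.0262 CPM in WSB/EiJ mice (log2 fold change 10.32 ± 0.46, edgeR adjusted p = 6.87e-08). Slc5a7, the choline transporter of nerve endings, had 19.1, 12.3 and 19.1 CPM in NZO/HiLtJ mice, against 0.0168, 0.0332 and 0.0262 CPM in WSB/EiJ mice. Both were also low in the other strains, with 0.440 ± 0.209 CPM in C57BL/6J mice and 0.108 ± 0.0694 CPM in CAST/EiJ mice for Tph2 and 0.979 ± 1.37 CPM in C57BL/6J mice and 0.0268 ± 0.0185 CPM in CAST/EiJ mice for Slc5a7. Crtac1, the gene of a secreted matrix protein, had 10.9, 7.54 and 9.84 CPM in NZO/HiLtJ mice, against 0, 0.0166 and 0.0262 CPM in WSB/EiJ mice, which is 2273 counts against 3, a ratio of 707 with a 95% counting interval of 242 to 3430. Fam196b had 1475 counts in the NZO/HiLtJ libraries and 0 in the WSB/EiJ libraries, at least 459-fold higher against a floor of 3 counts over the group. These 4 were the named genes under 0.1 CPM in all WSB/EiJ mice and at 5 CPM or more in every NZO/HiLtJ mouse. The neural marker sums, at 63.7, 57.4 and 46.8 CPM in NZO/HiLtJ mice, against 47.1, 57.1 and 56.2 CPM in WSB/EiJ mice, had ranges that overlapped between the groups.

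Others were high in NZO/HiLtJ fat beside a low level in WSB/EiJ fat. Itgad, the CD11d integrin chain of macrophages, had 131, 56.9 and 30.95 CPM in NZO/HiLtJ mice, against 0.302, 0.879 and 0.722 CPM in WSB/EiJ mice. Its level was 1.29 ± 0.510 CPM in C57BL/6J mice and 1.08 ± 0.224 CPM in CAST/EiJ mice, so it was high in NZO/HiLtJ alone of the 4 strains by its means. Cyp4f16, a fatty acid hydroxylase, had 27.3, 29.3 and 33.5 CPM in NZO/HiLtJ mice, against 0.185, 0.265 and 0.171 CPM in WSB/EiJ mice, while the other strains had 27.3 ± 1.47 CPM in C57BL/6J mice and 20.8 ± 2.70 CPM in CAST/EiJ mice, so that here WSB/EiJ was the low strain. Ly6c1, a surface protein of endothelium and monocytes with near relatives, averaged 67.7 ± 6.92 CPM in NZO/HiLtJ mice and 1.36 ± 0.296 CPM in WSB/EiJ mice. Tnip1, a restrainer of NF-kappaB signals, averaged 402 ± 14.9 CPM in NZO/HiLtJ mice and 69.1 ± 1.45 CPM in WSB/EiJ mice, and Lbp, the endotoxin-binding protein, averaged 196 ± 3.35 CPM in NZO/HiLtJ mice and 18.03 ± 2.62 CPM in WSB/EiJ mice. Hamp2, a hepcidin gene, and Fgl1, a secreted protein, are liver transcripts, at 11.8 ± 6.95 CPM in NZO/HiLtJ mice and 0.0465 ± 0.00618 CPM in WSB/EiJ mice for Hamp2, and 12.3 ± 7.61 CPM in NZO/HiLtJ mice and 0.187 ± 0.218 CPM in WSB/EiJ mice for Fgl1, and both moved with the liver markers. Ctnna2, an alpha catenin of neurons, averaged 35.7 ± 2.71 CPM in NZO/HiLtJ mice and 0.0481 ± 0.0833 CPM in WSB/EiJ mice, and Brinp2, another neural gene, averaged 14.1 ± 1.11 CPM in NZO/HiLtJ mice and 0.0647 ± 0.0733 CPM in WSB/EiJ mice.

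On the other side, Mill1, a class I-like molecule, had 0.0130, 0 and 0.0127 CPM in NZO/HiLtJ mice, against 22.8, 17.2 and 24.9 CPM in WSB/EiJ mice. That is 2 counts in the NZO/HiLtJ libraries against 4296 in the WSB/EiJ libraries, a level higher in WSB/EiJ mice by a ratio of 2300 with a 95% counting interval of 637 to 19000. Cadps2, a factor of vesicle release, averaged 17.5 ± 3.06 CPM in NZO/HiLtJ mice and 573 ± 66.001 CPM in WSB/EiJ mice. Acsm3, a medium-chain acyl-CoA synthetase of mitochondria, averaged 18.7 ± 5.53 CPM in NZO/HiLtJ mice and 492 ± 44.6 CPM in WSB/EiJ mice. Acpp, an acid phosphatase, averaged 0.373 ± 0.270 CPM in NZO/HiLtJ mice and 37.6 ± 3.70 CPM in WSB/EiJ mice. Lipg, the endothelial lipase, averaged 1.13 ± 0.346 CPM in NZO/HiLtJ mice and 22.2 ± 2.53 CPM in WSB/EiJ mice. Pdk1, which restrains pyruvate dehydrogenase, averaged 13.5 ± 1.90 CPM in NZO/HiLtJ mice and 191 ± 13.2 CPM in WSB/EiJ mice. Eci3, a peroxisomal isomerase of fatty acid oxidation, averaged 3.26 ± 0.571 CPM in NZO/HiLtJ mice and 30.6 ± 1.78 CPM in WSB/EiJ mice, and Fez1, a neuronal transport adaptor, averaged 3.75 ± 0.480 CPM in NZO/HiLtJ mice and 58.3 ± 12.98 CPM in WSB/EiJ mice. Of the calls with the smallest p, Tceanc2, with an elongation factor domain, averaged 2.15 ± 0.0324 CPM in NZO/HiLtJ mice and 23.2 ± 1.54 CPM in WSB/EiJ mice, against 25.1 ± 0.476 CPM in C57BL/6J mice and 19.9 ± 0.782 CPM in CAST/EiJ mice, so NZO/HiLtJ was the low strain.

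Set against the mean of C57BL/6J and CAST/EiJ mice on the same diet, NZO/HiLtJ differed in 8843 genes (46.4%) and WSB/EiJ in 8607 genes (45.2%). The 2 comparisons share the C57BL/6J and CAST/EiJ libraries. For Lep the log2 fold changes against that mean were 1.85 in NZO/HiLtJ mice and -2.57 in WSB/EiJ mice. For Elovl6 they were -0.11 in NZO/HiLtJ mice and 4.49 in WSB/EiJ mice. Tst gave -1.01 in NZO/HiLtJ mice and 1.96 in WSB/EiJ mice. Itgax gave 3.23 in NZO/HiLtJ mice and -0.46 in WSB/EiJ mice. Sparc gave 2.36 in NZO/HiLtJ mice and -0.21 in WSB/EiJ mice, and Uqcrc2 gave -0.25 in NZO/HiLtJ mice and 0.89 in WSB/EiJ mice.

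The same strains on the high-fat diet, which are other mice, gave a second view of these genes. There, in a fit of all 24 libraries, 7328 of 20035 genes were called between NZO/HiLtJ and WSB/EiJ, or 36.6%. Of the 9714 genes called on the standard diet and measured there, 8074 had the same sign (83.1%, beside 72.8% of all genes), 4273 were also called with that sign, and 305 were called with the opposite sign. Tst had 6.45, 5.73 and 8.54 CPM in NZO/HiLtJ high-fat mice, against 27.2, 21.3 and 21.6 CPM in WSB/EiJ high-fat mice, a log2 fold change of -1.76 with an edgeR adjusted p of 0.0112. Lep, Elovl6, Cwc22 and H2-Eb1 had log2 fold changes of 4.67, -4.35, -5.50 and 7.74 and were called. Nnat, Hamp2 and Crtac1, far higher in NZO/HiLtJ mice on the standard diet, had 2.27, 2.11 and 2.29 and were not called. Hamp2 was near 0 in both high-fat groups, at 0.437, 0.0268 and 0.0699 CPM in NZO/HiLtJ mice, against 0.0267, 0 and 0.0926 CPM in WSB/EiJ mice. Crtac1 had 13.2, 9.94 and 11.6 CPM in NZO/HiLtJ high-fat mice, against 0.361, 6.69 and 0.0397 CPM in WSB/EiJ high-fat mice, so mouse 2 held the high WSB/EiJ value. Sqor, Cdo1, Retn and Nampt, lower on the standard diet, had -0.51, -0.55, -0.95 and -0.27 and were not called. In the fit of 24 libraries Sqor, Cdo1 and Retn were not called on the standard diet either. Mill1 kept its call at -7.88. Its level was 0 CPM in each NZO/HiLtJ high-fat mouse, against 0.294, 0.0809 and 0.913 CPM in WSB/EiJ high-fat mice. Col1a1 and Mki67, higher on the standard diet, had -0.45 and -0.08 and were not called. The WSB/EiJ high-fat libraries held more transcripts of other cell types, with a mammary epithelium sum of 16.5, 23.7 and 23.1 CPM in NZO/HiLtJ mice, against 321, 848 and 1238 CPM in WSB/EiJ mice, and a smooth muscle sum of 784, 770.5 and 924 CPM in NZO/HiLtJ mice, against 3160.1, 1857 and 7673 CPM in WSB/EiJ mice. WSB/EiJ high-fat mouse 2 stood apart by its neural sum, with 59.6, 66.1 and 58.7 CPM in NZO/HiLtJ mice, against 58.01, 2519 and 76.6 CPM in WSB/EiJ mice. In the same fit CAST/EiJ high-fat mouse 1 stood apart, with a kidney sum of 4029 CPM and a smooth muscle sum of 15598 CPM. The part of mammary epithelium and smooth muscle in the differences between diets was not tested.

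The difference between strains itself differed between diets for 989 of 20035 genes, or 4.94%, and for 691 of those called on the standard diet. That count was unstable, at 256 without NZO/HiLtJ high-fat mouse 2, 3097 without CAST/EiJ high-fat mouse 1 and 2016 by DESeq2. Itgax had 279, 379.8 and 265 CPM in NZO/HiLtJ high-fat mice, against 6.14, 2.90 and 2.30 CPM in WSB/EiJ high-fat mice, a larger difference than on the standard diet, and the interaction was 2.67 on the log2 scale (edgeR adjusted p = 0.0216). Cd68 had 267, 344 and 233 CPM in NZO/HiLtJ high-fat mice, against 24.7, 24.4 and 21.3 CPM in WSB/EiJ high-fat mice, with an interaction of 1.85 (edgeR adjusted p = 0.000541). Ctnna2 had 13.9, 10.2 and 19.7 CPM in NZO/HiLtJ high-fat mice, against 0.0936, 50.05 and 0.106 CPM in WSB/EiJ high-fat mice, with an interaction of -9.53 (edgeR adjusted p = 0.0228). The high WSB/EiJ value came from mouse 2, the one with the high neural sum, and without that library the interaction was -2.15 (edgeR adjusted p = 0.371).

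**Figure D4:**
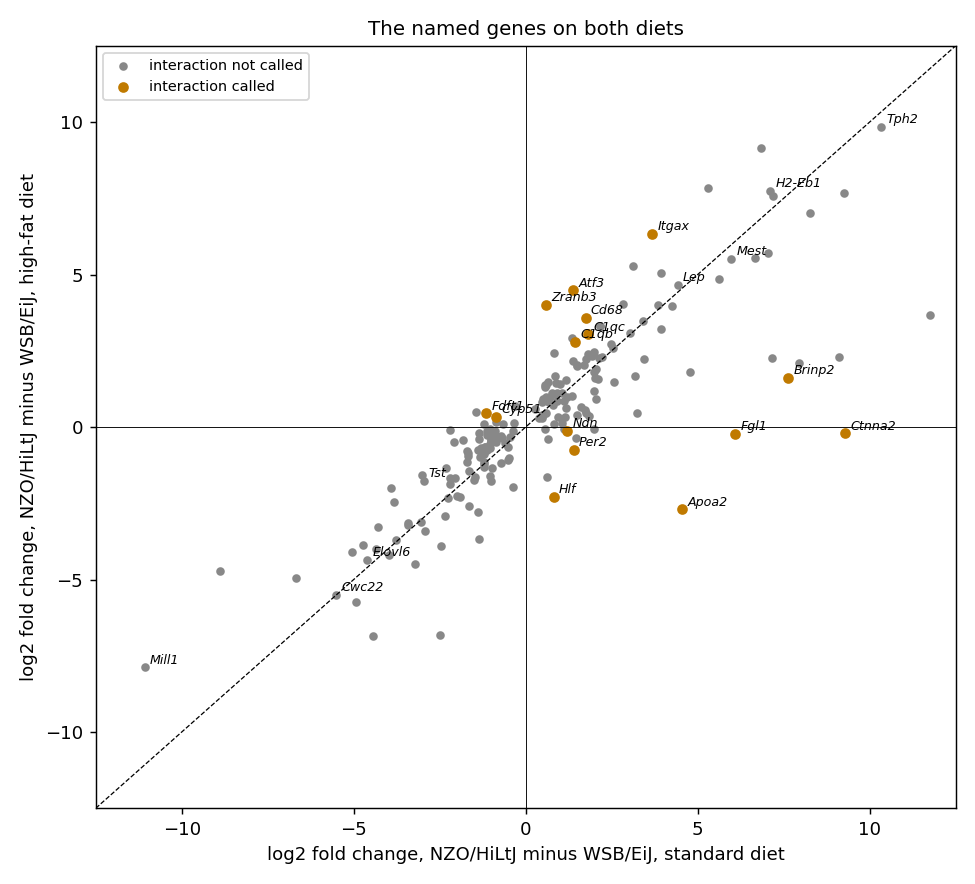
Each point is a gene named by rule, with its log2 fold change, NZO/HiLtJ minus WSB/EiJ, on the standard diet (x axis) and on the high-fat diet (y axis), high-fat values from a fit of all 24 libraries, and the dashed line marks equality. The 15 genes with a called interaction are coloured, and among them Ctnna2, Fgl1 and Apoa2 lie far below the line and Itgax and Zranb3 above it.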

How the data were processed

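The material was poly(A) RNA of inguinal fat from single mice, read as RNA-seq. The authors deposited expected counts per gene, which the submitters' processing notes tie to the tools RSEM 1.2.1, CASAVA 1.8.0 and Bowtie 0.12.8 and to the builds mm9 and NCBIM37, without their order or role. The deposited estimated counts are whole numbers. A second deposited table, an upper-quartile normalised signal by the authors, was not used here. Whether reads were aligned to 1 genome or to strain genomes is not given in the sources used here, so alleles, copies or deletions that differ between strains can change a gene's count. Strand of the libraries is likewise not given, and genes with near-identical copies are uncertain.

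Symbols matched 32919 of 37991 identifiers (86.6%). Counts of the 12 standard-diet libraries were fitted in R 4.3.3 with edgeR 4.0.16 (filter on low counts by group, TMM scaling, quasi-likelihood F test, Benjamini-Hochberg adjustment, call at adjusted p below 0.05). The filter left 19038 genes and removed 18953, with 8 residual degrees of freedom and a biological coefficient of variation of 22.3%. High-fat values and the interaction came from the same model of all 24 libraries, with 20035 genes. The test was run beforehand on simulated counts in which a small share of genes had known folds, as many up as down. In the data 51.0% of genes were called, so that run does not show how the scaling or false calls behave here. Marker sums and marker genes of single libraries are CPM over the unscaled total, and gene levels are normalised CPM. Each mouse is 1 replicate, and p-values measure the spread between mice of 1 inbred strain, so strain cannot be told apart from cage or batch shared by a strain. Counting intervals and floors cover counting error only.

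Alternatives were other scalings, filters and tools (limma 3.58.1 voom, DESeq2 1.42.0), other sets of libraries, each library left out, the liver marker sum as a covariate, and, chosen after seeing the data, that sum without Cyp2e1 and NZO/HiLtJ mouse 2 and WSB/EiJ mouse 3 left out together. The comparison and the gene lists were chosen with earlier results of these data known. Named genes were Tst, the 12 highest and 12 lowest called log2 fold changes among genes of at least 10 CPM with no overlap, up to 8 smallest adjusted p at 2-fold or more per direction, up to 4 members per list and direction by adjusted p, and genes under 0.1 CPM in 1 strain and at 5 CPM or more in the other. Exceptions are said to be named after their values were seen, and low ranks are left out for space. Some genes that the rule names are not reported here.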

Additional observations from a re-analysis of the deposited data

Results flagged for a closer look

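The difference between NZO/HiLtJ and WSB/EiJ mice changed with diet, by the interaction test of edgeR at an adjusted p below 0.05, for 15 of 204 genes reported and named by rule. Over all genes tested it did so for 989 of 20035, or 4.94%. Each interaction is the log2 fold change on the high-fat diet minus that on the standard diet. The 204 genes were named mostly by their difference on the standard diet, which is 1 term of the interaction. Such a choice favours a smaller difference on the other diet. In 6 genes the difference was larger on the high-fat diet with the same sign, and in the other 9 it was smaller there or had turned. The fold changes on each diet come from different mice, and of the 15, 5 were called in each of the 13 fits that left out 1 library, namely Fgl1, Fdft1, Cd68, Atf3 and Zranb3. Without WSB/EiJ high-fat mouse 2, whose neural sum was 2519 CPM, 6 were no longer called.

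The 6 genes with the larger difference on the high-fat diet included 4 that macrophages express, though other macrophage genes such as Ctss, Lgals3 and Mmp12 had no called interaction. Itgax had an interaction of 2.67, Cd68 of 1.85, C1qb of 1.36 and C1qc of 1.24. Atf3, a stress factor, had 3.11, and Zranb3, a helicase gene, had 3.42. For Zranb3 the NZO/HiLtJ high-fat mice had 113, 146 and 91.6 CPM, against 7.76, 8.22 and 5.94 CPM in WSB/EiJ high-fat mice.

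Differences that were smaller or had turned on the high-fat diet included liver transcripts, with an interaction of -7.24 for Apoa2 and -6.28 for Fgl1. The liver marker sum without Cyp2e1 was 55.0, 34.9 and 18.1 CPM in NZO/HiLtJ high-fat mice, against 206, 177 and 424 CPM in WSB/EiJ high-fat mice, the reverse of the order on the standard diet. Its part in the other interactions was not tested. The neural genes Ctnna2 and Brinp2 had -9.53 and -6.03, and -2.15 and -2.76, neither called, without WSB/EiJ high-fat mouse 2. Brinp2 stood at 11.3 CPM in that mouse, against 0.455 and 0.397 CPM in mice 1 and 3 of its group. The clock genes Hlf and Per2 had -3.10 and -2.14, and -1.91 and -1.92, neither called, without that library. The cholesterol genes Fdft1 and Cyp51, which were lower in NZO/HiLtJ mice on the standard diet, had 1.60 and 1.21. The imprinted gene Ndn had -1.34, and -0.94, not called, without that library, as was C1qc at 1.17. These calls were also lost when other single libraries were left out. Of the 13 such fits, C1qc, Hlf and Ndn were called in 3 each, Brinp2 in 5, Ctnna2 in 6 and Per2 in 8.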

How the results depend on the processing

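With all 24 libraries in the fit, whose biological coefficient of variation was 40.1%, 5636 genes were called between NZO/HiLtJ and WSB/EiJ mice, 3144 higher and 2492 lower. Of the named genes other than Tst, 75 lost their call in that fit and the other 148 did not. Named genes in these counts are all those named by rule, reported here or not, and those named after their values were seen. With the liver sum without Cyp2e1 as a covariate, chosen after seeing the data, 4148 were called, 2436 higher and 1712 lower. There 57 of the named genes lost their call and the other 166 did not. With the full liver sum, which Cyp2e1 sets and which was higher in WSB/EiJ mice, 6443 were called, 2909 of them lower, and 27 named genes lost their call. Leaving out each library in turn gave 8393 to 10040 calls, 4505 to 5285 higher and 3888 to 4793 lower. Against the mean of C57BL/6J and CAST/EiJ mice, the counts ran from 7095 to 9191 for NZO/HiLtJ and from 7096 to 8909 for WSB/EiJ. Of the 24-library counts, recomputed without each of the 12 NZO/HiLtJ and WSB/EiJ libraries and without CAST/EiJ high-fat mouse 1, those on the high-fat diet ran from 5232 to 10102, and for the interaction from 256, without NZO/HiLtJ high-fat mouse 2, to 3097, without CAST/EiJ high-fat mouse 1. DESeq2 gave 2016 interaction calls. The other scalings, filters, tools and sets of libraries kept the counts of calls between NZO/HiLtJ and WSB/EiJ within 1.5 times, and the log2 fold change of Tst ran from -3.11 to -2.38. The cause of these changes was not tested, except that a wider spread entered the fit of 24 libraries. No paired analysis was possible because the labels give no replicate numbers that tie mice of different strains. No gene called and named in the text changed direction under these alternatives. Levels near 0 limit the folds of genes listed as absent in 1 strain.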
